A study of Mus musculus with 4 samples.

Results

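The Dlk1-Dio3 microRNA cluster is the group of microRNA genes that lies within the imprinted Dlk1-Dio3 region of mouse chromosome 12. Its members were chosen by name, as the rows of the deposited table that carry the microRNA numbers of the cluster, and the naming rule uses no measured value, although it was set with earlier results of these data known. The table held 48 such rows of 626 in all. Further cluster numbers had no row, namely mir-432, mir-453, mir-544, mir-654 and mir-1188. The row mir-3072 also lies in the locus but is outside the rule, with 6 mean counts in ESCs and 0 in EBs. All 48 members matched an annotated microRNA gene on chromosome 12 (GRCm38), between 109563692 at mir-770 and 109743795 at mir-410, a span of 180.1 kb.

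Small RNA was sequenced on an Ion Torrent PGM from mouse embryonic stem cells (ESCs) and from embryoid bodies (EBs), the aggregates in which such cells differentiate. Both groups came from the single feeder-independent line CGR8, used at passages 5 to 13, for which the labels give C57BL/6 as the background and 129P2/OlaHsd as the donor strain. The ESC group (day 0) was kept in 10% serum with leukemia inhibitory factor (LIF) at 100 U/ml. The EB group (day 8) was grown in 20% serum with no LIF, for 2 days as hanging drops of 1000 cells and then for 6 days in suspension. No genetic change or other agent is named for either group. An EB holds a mixture of cell types, and no sorting was described. The question here is how the level of each cluster member differed between the undifferentiated cells and the day 8 aggregates.

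MicroRNAs are short RNAs cut from hairpin precursors that lower the output of messenger RNAs, and most of their target choice rests on the seed, the bases near the 5′ end. In the Dlk1-Dio3 region the noncoding RNAs Meg3, Rian and Mirg and the microRNAs are made from the maternally inherited chromosome, whereas the protein-coding genes Dlk1, Rtl1 and Dio3 are expressed from the paternal one. The microRNAs are best known from brain, placenta and embryo, and loss of this maternal expression has been described in many mouse induced pluripotent stem cell clones.

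The sequences below, from RefSeq (GRCm38.p6), are those of the members on which the comparison turned. All 48 members were matched by symbol, with 92 mature sequences of 18 to 26 bases. For 4 of them, mir-376c, mir-487b, mir-539 and mir-485, only 1 arm was available. Capitals mark the seed (bases 2 to 8), and all sequences printed here come from the plus strand. Because the table counts by precursor, it does not show which arm was sequenced. The arms of the precursors mir-136, mir-433 and mir-127, which lie antisense within Rtl1 and differed in direction, are:
miR-136-5p: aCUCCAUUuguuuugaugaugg
miR-136-3p: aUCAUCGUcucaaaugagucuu
miR-433-5p: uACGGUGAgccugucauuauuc
miR-433-3p: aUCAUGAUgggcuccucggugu
miR-127-5p: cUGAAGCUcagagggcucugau
miR-127-3p: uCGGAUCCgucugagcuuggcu

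The next set shows neighbours with similar sequence. The arms of mir-376c and mir-376b share the seed UGGAUAU and differ by 1 base edit. Those of mir-379 and mir-411 share the seed AUGUAAC and differ by 2 edits. The 3p arms of mir-543 and mir-495, which were both lower in the EBs, differ by 4 edits and have different seeds.
miR-376c-5p: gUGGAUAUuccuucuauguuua
miR-376b-5p: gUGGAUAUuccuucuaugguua
miR-379-3p: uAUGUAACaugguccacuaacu
miR-411-3p: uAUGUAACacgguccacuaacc
miR-543-3p: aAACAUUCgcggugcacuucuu
miR-495-3p: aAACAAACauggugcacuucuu

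The most abundant members have unrelated seeds. The arms of mir-541 (highest in ESCs), mir-134 (highest in EBs) and mir-409 are:
miR-541-5p: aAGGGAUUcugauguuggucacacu
miR-541-3p: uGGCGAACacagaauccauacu
miR-134-5p: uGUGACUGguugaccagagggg
miR-134-3p: cUGUGGGCcaccuagucacc
miR-409-5p: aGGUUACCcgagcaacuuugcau
miR-409-3p: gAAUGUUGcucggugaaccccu

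The 92 matched sequences held 85 different seeds, and 7 seeds occurred in more than 1 member. This number is a minimum, since 4 members had only 1 arm. Members with a shared seed did not always differ in the same direction. The precursors mir-379 and mir-411 are such a case, whose mean counts were 449 and 43 in ESCs and 106 and 39 in EBs. Of the pair that shares UGGAUAU, mir-376c was higher in EBs, whereas the fold of mir-376b was close to 1 with TMM and its sign depended on the scaling. The pair mir-494 and mir-410, with the seed GGUUGUC, had log2 folds of 0.55 and 0.23, both under 2-fold.

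Total microRNA counts were 557250 and 557643 in the ESC columns and 139104 and 139360 in the EB columns, so the EB data were 4.0 times shallower. The columns of a group differed by less than counting error, with a chi-square per degree of freedom of 0.235 for ESCs and 0.284 for EBs. Separate counts that differ by counting error alone would lie near 1, and independent libraries near 1 or above. The difference between the columns was an even number in all 47 members with ESC counts and in all 44 with EB counts, against 85.4% and 83.1% of all rows with counts. Each pair of columns was therefore counted as 1 library, by its mean. The design then has 1 library per group and no replicate check, and no p-value is given. The exact 95% intervals given with folds reflect counting error alone and set these libraries, not the conditions, side by side. Marker microRNAs of several cell types had the following values. All 5 entries of the epiblast-stage miR-302 and miR-367 list passed 2-fold upwards in EBs and went from 0.0341% to 6.53% of counts. The miR-290 to miR-295 list of ESCs still took 52.3% of EB counts, against 53.9% before, with 5 of 7 measured entries lower and 1 higher. The higher entry, mir-294, weighed heavily on the EB share. It had 29327 mean counts in ESCs and 36578.5 in EBs (log2 fold 2.04), of 300604 and 72814 for the list. Of 13 measured neural entries, several of them copies of the same mature sequence, 10 passed 2-fold downwards, and all 15 summed to 5908 mean counts in ESCs and 354 in EBs. The 3 muscle entries had 12 and 5 mean counts in all, with mir-1a-2 at 0 in both. The 4 blood entries had 72 and 125, nearly all from mir-142a. The part of these cell types in the cluster's values was not tested. In such bulk samples, fewer cells of a type and less RNA per cell cannot be told apart.

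As a whole the cluster was present in both libraries, at a level close to equal or slightly higher in EBs, depending on the scaling. It summed to 4719 and 4757 counts in the ESC columns and to 1434 and 1442 in the EB columns. This was 0.85% of ESC counts (exact Clopper-Pearson interval 0.826 to 0.874) and 1.03% of EB counts (0.980 to 1.09). After TMM scaling (trimmed mean of M-values), which assumes that the bulk of entries do not differ, the sum in the EB library was 0.999 times that in the ESC library (0.941 to 1.06). That assumption is uncertain here, since 63.8% of all measured entries passed 2-fold with this scaling. Scaled by library totals the cluster's sum was 1.22 times, and 1.00 times in the authors' quantile-normalized values, so whether the sum was equal or slightly higher depended on the scaling. A few members carried much of it. The top 5 took 51.6% of the cluster's ESC counts and 49.1% of its EB counts, and 7 members were among the top 10 in both libraries.

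**Figure D1:**
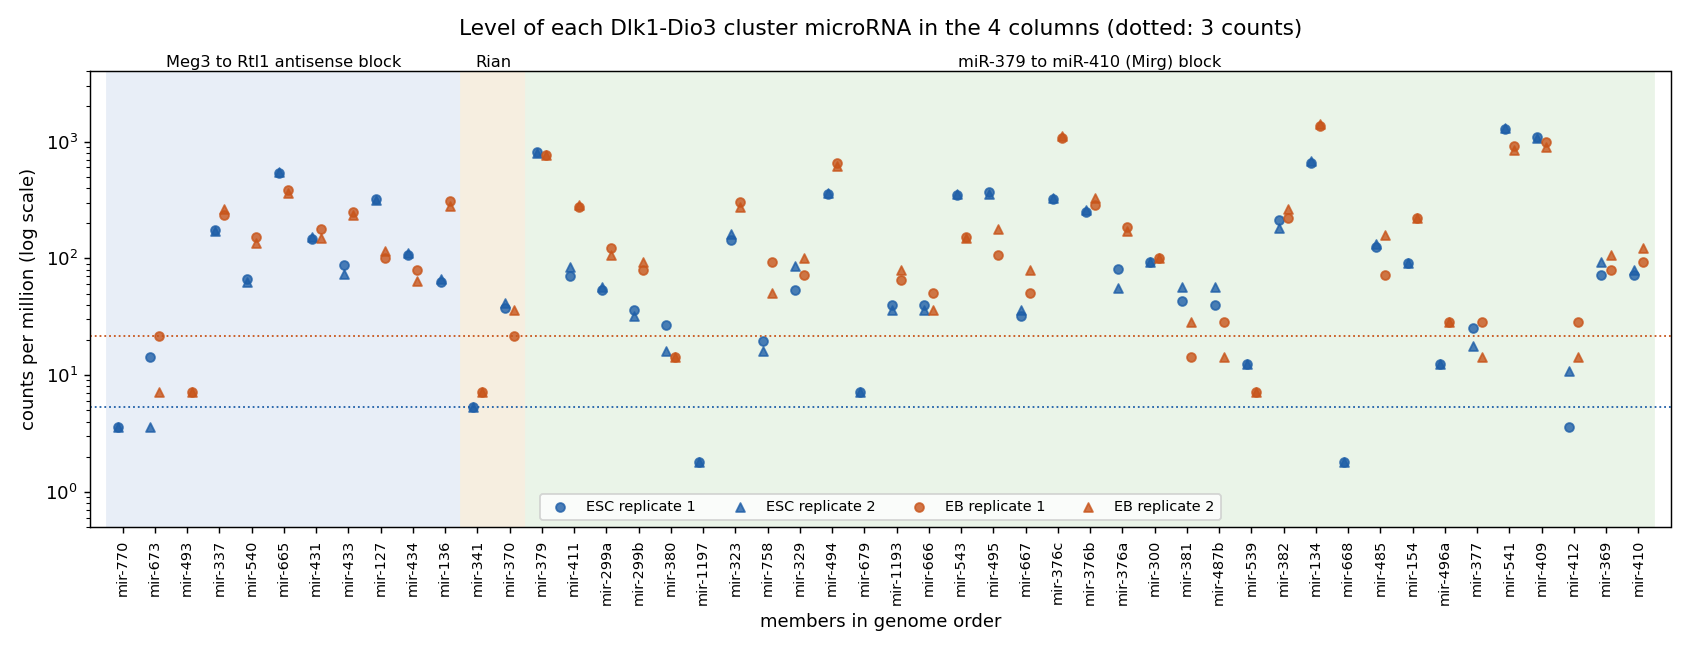
CPM (counts per 1000000 counts of a column, log axis) of the 48 members in genome order, with circles and triangles for the 2 columns of each group, ESC in blue and EB in orange; dotted lines mark 3 counts, and a column at 0 has no symbol. The columns of a group lie close together, mir-541 and mir-409 lead the ESC library, and mir-134 and mir-376c lead the EB library.

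Single members differed in both directions within this sum. A filter on low counts kept 36 members as measured. After TMM scaling 7 of them were higher in EBs by 2-fold or more, 5 were lower by as much, and 24 stayed below that size. The background over all 367 measured entries was 33.5% higher, 30.2% lower and 63.8% either way by the same size rule. For the cluster the shares were 19.4%, 13.9% and 33.3%, each lower than in the whole table, a description of these libraries with no test. The median log2 fold of the measured members was 0.02, beside 0.07 over all measured entries. With library totals the median was 0.30, beside 0.35, and in the quantile-normalized values -0.26, beside -0.19, so its sign depended on the scaling. The higher members were mir-136, mir-758, mir-411, mir-376c, mir-433, mir-376a and mir-299b, and the lower ones mir-127, mir-495, mir-543, mir-381 and mir-487b. Equality lay outside the counting interval for 6 of the 7 and 3 of the 5, and inside it for mir-299b, mir-381 and mir-487b. The filter was passed through the ESC columns alone by mir-370, mir-381 and mir-487b and through the EB columns alone by mir-758, so the choice of measured members favours the direction seen for these. Nearest to the threshold, mir-154 was 1.9999-fold higher and was counted as under 2-fold, and mir-299b was 2.08-fold higher.

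**Figure D2:**
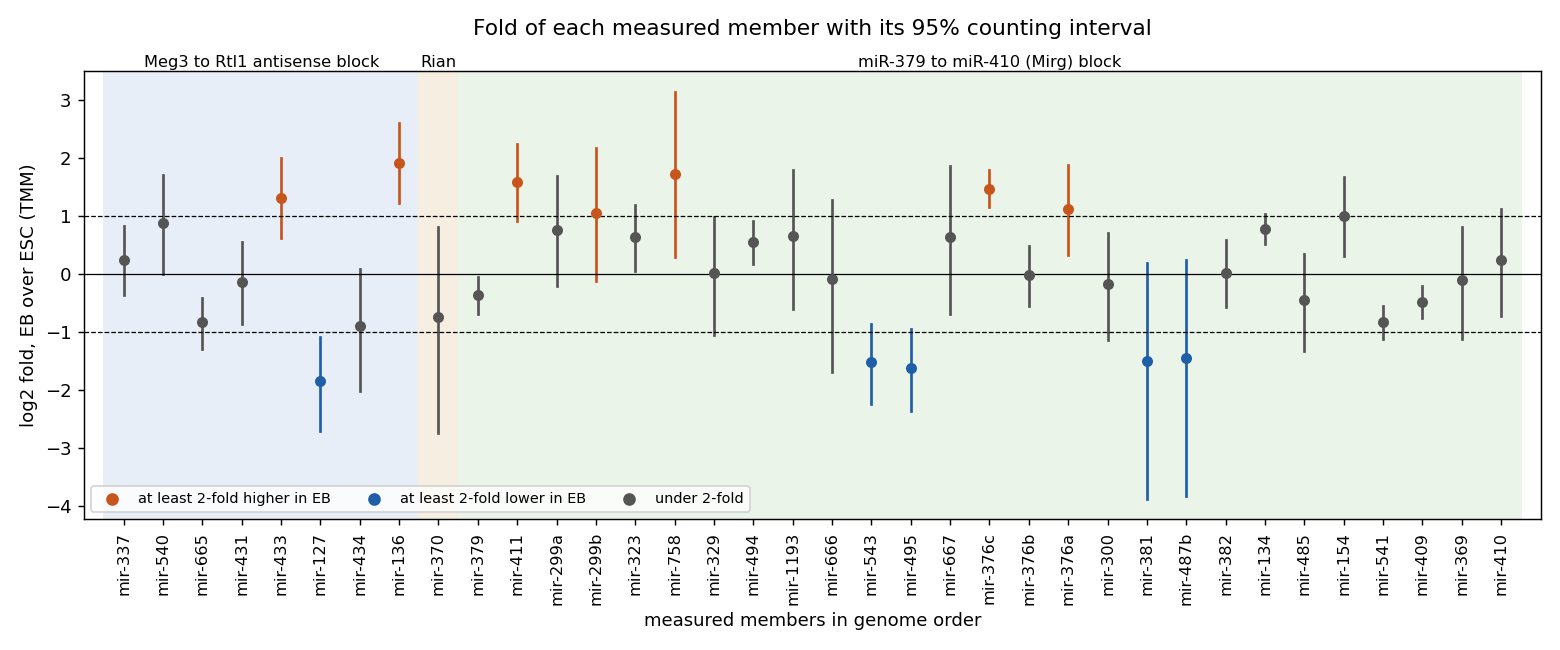
Log2 fold (EB over ESC, TMM-scaled mean counts) of the 36 measured members in genome order, with bars for the 95% counting interval and dashed lines at 2-fold. Higher and lower members stand next to each other, as mir-433 and mir-127 do, and 24 of the 36 lie between the dashed lines.

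The block from Meg3 to the Rtl1 antisense genes held 11 members, 8 of them measured, of which 2 were higher, 1 was lower and 5 were under 2-fold. The shares of 25% higher and 12.5% lower stand beside 33.5% and 30.2% of all measured entries. The block's mean counts summed to 847 in ESCs and 233 in EBs, 0.905 times with TMM (0.780 to 1.05), 1.10 times with library totals and 0.643 times in the quantile-normalized values. The highest and the lowest TMM fold of all measured members lay among the 5 members inside Rtl1, a retrotransposon-derived gene needed in the placenta, which spans 109589193 to 109600330 on the minus strand. These microRNAs are transcribed from the other strand, are fully complementary to the Rtl1 messenger RNA and are known to direct its cleavage. Of them, mir-136 had 35 and 37 counts in the ESC columns and 43 and 39 in the EB columns, or 64.6 and 294 CPM (counts per 1000000) on average. Both EB columns lay above both ESC columns, although the EB data were shallower. Here and below, such positions of the columns are no replicate check, since each pair was counted as 1 library. It was 3.75-fold higher in the EB library (2.34 to 6.03).

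By contrast, mir-127 had 178 and 176 counts in the ESC columns and 14 and 16 in the EB columns, from 318 to 108 CPM. Its EB columns were the lower ones on both scales. It was 3.59-fold lower (2.12 to 6.54). The precursor mir-433 had 49 and 41 ESC counts and 35 and 33 EB counts and was 2.49-fold higher (1.54 to 3.97), with a log2 fold of 0.84, under 2-fold, in the quantile-normalized values. The other two in Rtl1 lay under 2-fold. One of these, mir-431, had 81 and 85 ESC counts and 25 and 21 EB counts, with a log2 fold of -0.13 (-0.87 to 0.55), and mir-434 had 60 and 62, then 11 and 9, with -0.89 (-2.02 to 0.09). The hairpin of mir-136 starts 2.48 kb from that of mir-127. Within each library their ratio needs no scaling: for each count of mir-127 there were 0.203 counts of mir-136 in ESCs and 2.73 in EBs, a 13.4-fold change of the ratio (exact interval 6.41 to 28.7). This pair and the other single pairs whose ratios are given were picked after their values were seen.

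Upstream of Rtl1, mir-665 was the most abundant, with 302 and 308 ESC counts and 53 and 51 EB counts. These counts were read after the rows from mir-664 on were moved up by 1, since they sat on the wrong row in the table. The same holds for mir-666, mir-667, mir-668, mir-673, mir-679, mir-758 and mir-770. All EB values of mir-665 were lower, also in CPM (547 against 373). The difference of 1.78-fold (1.33 to 2.44) stayed under 2-fold with TMM, but passed it in the quantile-normalized values, with a log2 fold of -1.37. Its neighbours mir-540 and mir-337 had log2 folds of 0.87 (0.00 to 1.70) and 0.25 (-0.35 to 0.82). Near Meg3, mir-770, mir-673 and mir-493 had at most 5 mean counts in either library and were not measured. The Rian block added little: mir-370 had 21 and 23 ESC counts and 3 and 5 EB counts (log2 fold -0.74, interval -2.74 to 0.82), and mir-341 had 3 and 1 mean counts.

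The block from mir-379 to mir-410 held 35 members, 27 of them measured, with 5 higher, 4 lower and 18 under 2-fold. The shares of 18.5% higher and 14.8% lower stand beside 33.5% and 30.2% of all measured entries. The block's share of all counts went from 0.694% in ESCs to 0.862% in EBs, and its scaled sum in EBs was 1.02 times that in ESCs (0.956 to 1.09). In neurons this block is known as a transcript switched on by activity through Mef2, and miR-134, miR-329 and miR-381 from it are needed for dendrite growth. In the annotation 12 of its members lie inside Mirg (109729764 to 109749460, plus strand), and 23 lie upstream of it. This split was looked at after the values were seen. With TMM the 9 members past 2-fold lay upstream, 47.4% of the 19 measured there and beside 63.8% of all measured entries, and 0 of the 8 measured inside Mirg passed it. This depended on the scaling: inside Mirg, mir-134 and mir-154 passed 2-fold with library totals (log2 folds of 1.06 and 1.28), and mir-134 did so in the quantile-normalized values (1.58).

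The precursor mir-134, best known for limiting dendritic spine size through Limk1 and also described as promoting mouse ESC differentiation, was the most abundant member in the EB library. Its level was 658.6 and 676.1 CPM in the ESC columns and 1366 and 1421 CPM in the EB columns, from mean counts of 372 and 194. Both EB columns were above both ESC columns. Its share of the cluster went from 7.85% to 13.5%. The TMM fold was 1.72 (1.43 to 2.05), under the threshold, whereas log2 folds of 1.06 by library totals and 1.58 by quantile normalization were past it.

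The 3 most abundant members of the ESC library were lower in EBs, by less than 2-fold. For mir-541 the ESC columns held 715 and 725 counts and the EB columns 128 and 118. It was 1.78-fold lower (1.47 to 2.17). The next, mir-409, had 609 and 593, then 138 and 124, and was 1.39-fold lower (1.15 to 1.70). The block's first gene, mir-379, had 449 in both ESC columns and 106 in both EB columns and was 1.29-fold lower (1.04 to 1.61), close to equal with library totals (log2 fold -0.08). None of these 3 passed 2-fold under TMM, DESeq2 size factors, library totals or quantile normalization. Against mir-541, the ratio of mir-134 went from 0.517 to 1.58, a 3.05-fold change (2.34 to 3.99).

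Next to mir-379, mir-411 had 39 and 47 ESC counts and 38 and 40 EB counts. The shallower EB columns thus held about as many counts. It was 2.98-fold higher (1.88 to 4.71), and the ratio of mir-411 to mir-379 changed 3.84-fold (2.30 to 6.39). The 3p arms of mir-379 and mir-411 differ by 2 edits, and how the authors' counting split reads between them is not known. Beside mir-411, mir-299a and mir-299b lie on opposite strands of the same stretch. The strand setting of the counting is not given, so their reads may not be separable. Their folds were 1.70 and 2.08, and both intervals included no difference. The low-count mir-758, known as a regulator of the cholesterol transporter Abca1, had 11 and 9 ESC counts and 13 and 7 EB counts and was 3.29-fold higher (1.23 to 8.81). Its neighbour mir-323 had 80 and 90, then 42 and 38, and was 1.55-fold higher (1.04 to 2.28).

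Among the members in the middle of the block, mir-494 had 198 and 202 ESC counts and 92 and 86 EB counts. It was 1.46-fold higher (1.13 to 1.89) with TMM, but its log2 fold was -0.18 in the quantile-normalized values, so its direction depended on the scaling. A short distance downstream the direction was the opposite. The precursor mir-543, 1 of the microRNAs linked to N-cadherin control in neural progenitors, had 196 and 198 ESC counts and 21 in both EB columns. It was 2.85-fold lower (1.81 to 4.71). Beside it, mir-495 had 205 and 197, then 15 and 25, and was 3.05-fold lower (1.93 to 5.11). The ratio of mir-495 to mir-543 changed 0.933-fold, with an interval (0.464 to 1.87) that holds both no change and changes of well over 1.5-fold.

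The miR-376 genes, known for A-to-I editing of their precursors, followed within a few kilobases. The precursor mir-376c had 180 and 182 counts in the ESC columns, or 324.7 CPM on average. It was at 1078 and 1105 CPM in the EB columns, from a mean count of 152. The EB columns stood far above the ESC columns. It was the second most abundant member in the EB library, at 10.6% of the cluster against 3.82% in ESCs, and was 2.76-fold higher (2.21 to 3.45). The sequence-related mir-376b had 140 and 146, then 40 and 46, with a fold of 0.989 (log2 fold -0.02, interval -0.54 to 0.49). The ratio of mir-376c to mir-376b went from 1.27 to 3.53, a 2.79-fold change (1.84 to 4.29). For mir-376a the counts were 45 and 31, then 26 and 24. This was a 2.16-fold difference (1.25 to 3.68), but a log2 fold of 0.66 in the quantile-normalized values. With arms that differ by as little as 1 edit, how the authors' counting split reads among these genes is not known, so their separate values are uncertain. Further on, mir-381 and mir-487b were 2.84-fold and 2.74-fold lower on 3 mean EB counts each, with intervals of 0.876 to 14.6 and 0.842 to 14.1 that included no difference. The other measured members upstream of Mirg were mir-329, mir-1193, mir-666, mir-667 and mir-300. Their log2 folds were 0.02, 0.65, -0.09, 0.64 and -0.17 in that order, and each interval included 0.

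Inside Mirg the highest log2 fold was that of mir-154 at 1.00 (0.31 to 1.67), on 51 counts in both ESC columns and 31 in both EB columns. The precursor mir-485, known for lowering the synaptic vesicle protein SV2A, had 70 and 74, then 10 and 22, with a log2 fold of -0.45 (-1.33 to 0.34). For mir-382, mir-369 and mir-410 the log2 folds were 0.02, -0.10 and 0.23, each with an interval that included 0. Of these, mir-369 is known as part of a microRNA mixture used to reprogram somatic cells.

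Neighbouring members were then compared by their ratio within each library, which a scaling factor between libraries cannot move, although quantile normalization can. Of the 34 ratios of adjacent measured members, with mir-299b left out, 18 changed 2-fold or more. For 14 the interval excluded no change, and 13 met both. The median change of a ratio, taken as a fold in either direction, was 2.16-fold. Counting error alone puts such a fold above 1, most of all at low counts. Successive pairs also share a member, so the ratios are not independent of each other. Pairs of other entries were not compared in this way, and 63.8% of all measured entries passed 2-fold singly with TMM. These counts of pairs therefore do not show a trait particular to the cluster. The largest change was that of mir-127 to mir-433, a ratio 8.92-fold lower in EBs (4.26 to 19.1), over 1.13 kb. At the 3′ end of the block, the ratios mir-409 to mir-541, mir-369 to mir-409 and mir-410 to mir-369 changed 1.28-fold, 1.30-fold and 1.26-fold, all with intervals that included no change. Levels of the 36 measured members in the 2 libraries had a Spearman correlation of 0.78, given as a description of microRNAs from 1 locus and the same 2 libraries, beside 0.70 over all 367 measured entries.

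**Figure D3:**
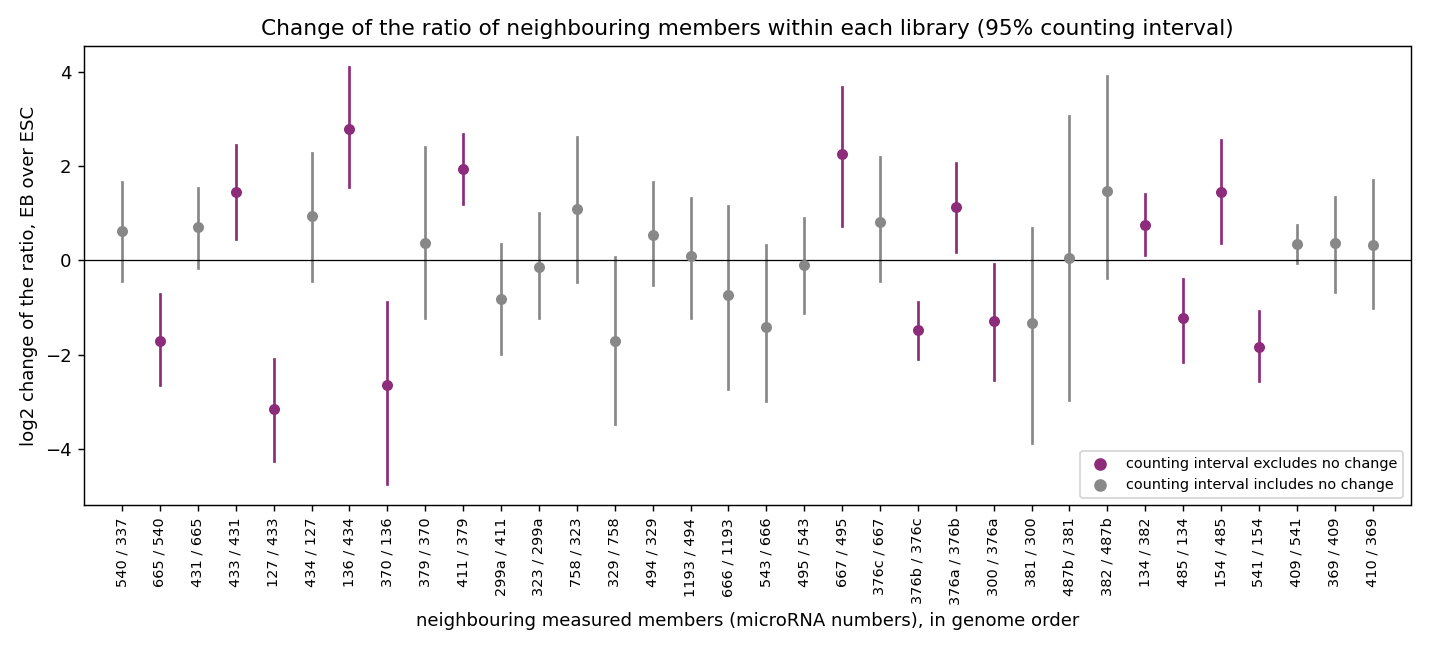
Log2 change, from ESC to EB, of the count ratio of each pair of neighbouring measured members (first number over second), with 95% counting intervals; purple marks the 14 of 34 intervals that exclude no change. The lowest point is mir-127 over mir-433 and the highest mir-136 over mir-434, and the last 3 points, from mir-409 over mir-541 on, have intervals that include no change.

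How many members passed 2-fold depended on the scaling between libraries. With library totals 11 members were higher and 5 lower, beside 38.4% and 26.4% of all measured entries and 64.9% either way. In the quantile-normalized values 5 were higher and 8 lower, beside 28.1% and 31.6%, and 59.7% either way. Under TMM, library totals and quantile normalization alike, mir-136, mir-411, mir-758 and mir-376c passed 2-fold upwards, and all 5 lower members kept a fold of 2 or more downwards. Among these, mir-758 passed the filter through the EB columns alone, and mir-381 and mir-487b through the ESC columns alone. Rescaling the same counts is no support for members chosen in this way. The intervals of mir-381 and mir-487b also included no difference, and without EB replicate 2 mir-487b had a log2 fold of -0.98. The sign was the same under all 3 scalings for 26 of the 36 measured members and depended on the scaling for 10.

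**Figure D4:**
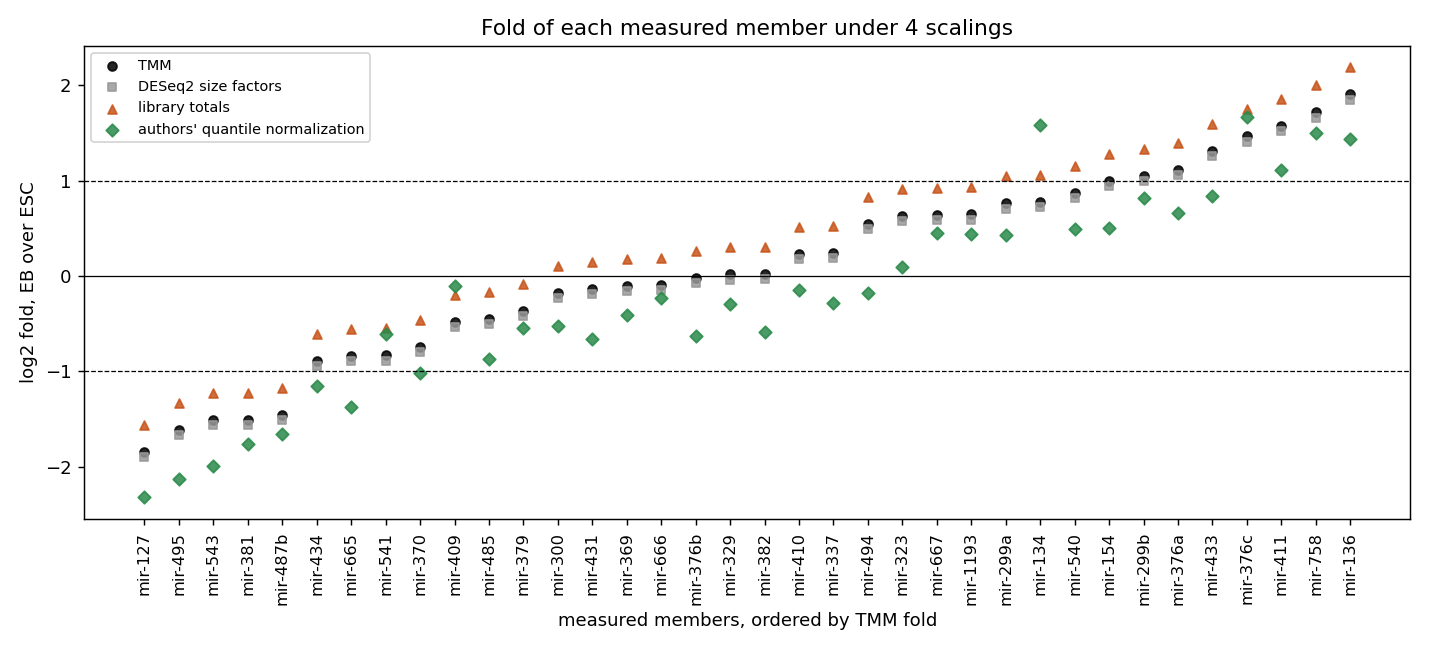
Log2 fold (EB over ESC) of the 36 measured members, ordered by the TMM value, under TMM, DESeq2 size factors, library totals and the authors' quantile normalization; dashed lines mark 2-fold. Library totals lie 0.28 above TMM for each member, and the quantile-normalized values of mir-134 stand well above its other values.

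The remaining 12 members had at most 12 mean counts in ESCs and 4 in EBs, and summed to 58 and 17. No difference was detectable for them at this depth. They were mir-770, mir-673, mir-493, mir-341, mir-380, mir-1197, mir-679, mir-539, mir-668, mir-496a, mir-377 and mir-412. Among all members, 47 had a count in ESCs and 44 in EBs. The exception in the ESC library was mir-493, and those in the EB library were mir-770, mir-1197, mir-679 and mir-668. A count of 0 allows up to 3 counts, or 5.38 CPM in an ESC column and 21.6 CPM in EB replicate 1.

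MicroRNAs of other imprinted loci were compared as a list of 5, of which 4 were measured. The precursor mir-335, which lies in the paternally expressed gene Mest, had a log2 fold of 1.25 (254 and 184 mean counts), and mir-483 from Igf2 had 2.94 (0.81 to 5.52) on 3 and 7 mean counts. The filter was passed by mir-483 through the EB columns alone, so the choice of measured entries favours its direction. Its ESC mean was also no higher than the 3 counts that a count of 0 allows. At the Gnas locus, mir-296 had a log2 fold of -1.41 (1430 and 164 mean counts), and mir-298 had -0.18. The H19 microRNA mir-675 had 0 and 3 mean counts, too few for a fold. The summed counts of the list were 1.33-fold lower in the EB library with TMM (1.21 to 1.47), but 0.912 times as high with library totals and 1.16 times as high in the quantile-normalized values, so the direction depended on the scaling. The difference from the Dlk1-Dio3 cluster was not tested.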

How the data were processed

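The authors deposited whole-number original counts per microRNA gene in 2 columns per group, per the file headers, and an average of each pair, an estimated count that was not used. A further 6 columns of transformed sample values were not used, nor were the 5 columns of the authors' own comparison. The normalized signal, deposited by the authors, holds 1 identical set of values in each of the 4 columns, as quantile normalization gives. No aligner, counter or build is given in the sources used here. From mir-664 on, 170 rows of counts sat 1 row too low. Their rank correlation with the normalized values was 0.355 to 0.541 as deposited and 0.995 to 0.999 once moved up. The counts of mir-99b, lost by the move, were rebuilt from the normalized values (1300, 1306, 70 and 74).

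Entries were kept by filterByExpr of edgeR 4.0.16 (minimum count 10, minimum total 15), and 36 of the 48 members passed. The fold is the ratio of TMM-scaled mean counts, with exact conditional binomial intervals (95%), and 2-fold was the size rule. Ratios of members have exact conditional odds-ratio intervals. Shares have Clopper-Pearson intervals. No molecular identifiers are described, so intervals and floors (3 counts) cover counting error only. Members named in full were the 10 most abundant of each library and all past 2-fold; any other member described was picked with its values known, as were the pairs for ratios. The rule for members uses names only, but it and the lists were chosen with earlier results of these data known. Positions are from GENCODE M21, and sequences from RefSeq. The fold calculation was run on simulated counts drawn from set folds with counting error alone. That checks the calculation only, not variation between libraries or the folds given here. The software was Python 3.11.15 with scipy 1.17.1, pandas 2.3.3, numpy 2.4.6 and matplotlib 3.10.9, and R 4.3.3 with DESeq2 1.42.0 for its size factors only.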

Additional observations from a re-analysis of the deposited data

How the results depend on the processing

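No paired analysis was possible because the columns of each group were counted as 1 library and the results come from no test. With library totals 11 members were at least 2-fold higher, and the log2 summed folds were 0.28 for the cluster, 0.14 for the Meg3 to Rtl1 antisense block and 0.31 for the mir-379 to mir-410 block. In the authors' quantile-normalized values 8 members were lower, the Meg3 to Rtl1 antisense block was at -0.64, and 0 of the other imprinted microRNAs were lower. With no filter 8 members were lower, beside 21.6% of all entries with a count. With a mean of at least 10 counts in either library, which also moved the TMM factors, 11 members and 1 other imprinted microRNA were higher, beside 33.8% of entries. With the counts as deposited, the log2 summed folds were -0.50 for the cluster and -1.32 for the Meg3 to Rtl1 antisense block, and 2 other imprinted microRNAs were lower. A size rule of 1.5-fold gave 14 higher and 9 lower (40.1% and 37.6% of all measured entries), and 3-fold gave 2 and 2 (23.2% and 20.4%). With intervals that exclude no difference, 3 members were lower, beside 27.8% of entries. Without mir-541 the log2 sums were 0.11 for the cluster and 0.17 for the mir-379 to mir-410 block. With copies summed, 13 were higher, beside 32.3% of entries. The cluster's own share was not worked out for summed copies. The lower share of higher members in the main setting is therefore not shown to hold there. Without the miR-290 to miR-295 counts in the denominator the cluster's share was 1.84% in ESCs and 2.17% in EBs. Leaving out each column gave 7 to 8 higher and 5 to 6 lower members, a median log2 fold of 0.06 to 0.21 and a log2 sum of -0.05 to 0.05. The median moved further with other settings. It was 0.30 with library totals, -0.26 in the quantile-normalized values and -0.13 with no filter. With a mean of at least 10 counts it was 0.27, and with copies summed 0.50. No median over all entries was worked out for the other filters or for summed copies. Leaving mir-99b out, an alternative chosen after the data were seen, gave 7 and 5. Ratios, also added after the data were seen, changed 2-fold or more in 13 to 20 neighbouring pairs with each column left out, 17 with the counts as deposited and 21 by quantile normalization, where the log2 changes were 2.30 for mir-376c to mir-376b, 2.19 for mir-134 to mir-541 and 1.68 for mir-134 to mir-409. Of 180 values of the 20 members named by rule under these alternatives, 171 lay inside the counting interval, and no member past 2-fold changed sign. This tally is a weak check, since a left-out column belonged to the same library as the one kept. DESeq2 size factors and leaving out mir-99b also moved each value little. Outside lay mir-134, mir-541 and mir-409 with library totals and mir-758 with the counts as deposited. By quantile normalization mir-665, mir-494, mir-376b, mir-134 and mir-409 lay outside. The cause of these shifts was not tested. Depth limits the EB library most, where 5 measured members had under 10 mean counts.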
